A study of Homo sapiens with 12 samples.

Results

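Cholesterol and fatty acid synthesis is described here by 32 listed genes of MDA-MB-231 cells, an established human breast cancer line, whose symbols were matched to the Ensembl gene IDs of a table of 60649 genes. They fall into 18 enzymes of the sterol branch, 8 enzymes of the fatty acid branch and 6 genes that regulate the pathway or carry its product. All 32 passed the filter on low counts, which kept 17576 genes for testing. Total RNA was sequenced in 4 groups of 3 libraries. SIRT1 KD cells carried a short hairpin RNA against SIRT1, IGF2BP2 KD cells one against IGF2BP2, double KD cells both, and control cells a sham hairpin. Whether a change came from loss of the target or from another effect of its hairpin was not tested. The SIRT1 protein removes acetyl groups from other proteins at the expense of NAD, and IGF2BP2 binds messenger RNAs. Every group, control included, had been infected with lentivirus packaged in HEK-293T kidney cells, with Polybrene at 8 µg/mL, and was held in puromycin at 2.0 µg/mL. The series text speaks of 3 independent runs of each condition and does not say whether a run was a separate infection, so a p-value here reflects only run-to-run spread.

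Cells build cholesterol from acetyl-CoA through mevalonate, isoprenoid phosphates, squalene and lanosterol, and they build saturated and unsaturated fatty acids from the same acetyl-CoA. Most genes of both branches are switched on by SREBP transcription factors, made from SREBF1, which favours the fatty acid genes, and SREBF2, which favours the sterol genes. SCAP escorts the SREBP precursors to the Golgi for cleavage when membrane cholesterol is low, and the INSIG proteins hold them in the endoplasmic reticulum when it is high. INSIG1 is itself a target of the pathway.

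Depth was 19522606 to 22509142 reads in genes in 11 libraries and 15243152 in replicate 2 of double KD, which stood apart. Its log2 values differed from those of its group mates with an SD of 0.353 across genes, against 0.138 to 0.248 in the other libraries, and mitochondrial genes held 1.18% of its reads, against 1.99% to 2.57%. Among the members, its normalised count over the mean of the other double KD libraries was 2.64 for CYP51A1, 1.81 for PMVK, 1.68 for EBP and 0.651 for SC5D. Calls that involve double KD cells are therefore also given without it. SIRT1 transcript was at 63.2% of control in SIRT1 KD cells, 87.3% in IGF2BP2 KD cells and 48.4% in double KD cells. IGF2BP2 transcript was at 122% in SIRT1 KD cells, 24.8% in IGF2BP2 KD cells and 28.1% in double KD cells. Double KD cells thus differed from SIRT1 KD cells in SIRT1 transcript as well as in IGF2BP2 transcript. What either contributes to a difference between these groups was not tested. Genes that mark this mesenchymal line (VIM, CD44, AXL, CAV1, MSN and S100A4) were present in every group. The 4 markers of kidney-derived packaging cells summed to at most 0.147 TPM, a length-corrected share of a library's transcripts, in any library. A list of 7 luminal epithelial markers summed to 478 to 635 TPM, nearly all of it from KRT18 (344 TPM in control cells) and KRT8 (238 TPM). The others were far lower in control cells: EPCAM 12.4, GATA3 7.93, CDH1 0.319, ESR1 0.059 and PGR 0.0056 TPM. Lists of 6 fibroblast and 6 immune markers summed to at most 13.4 and 1.78 TPM.

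In control cells the fatty acid branch was the more abundant per length. Its 8 enzymes summed to 2291, 2112 and 2114 TPM in the 3 control libraries, and the 18 sterol enzymes to 1142, 1120 and 1083 TPM. SCD, which puts the double bond into stearate and palmitate, led at 1003 ± 58.8 TPM, followed by FASN, the fatty acid synthase, at 559.6 ± 37.7 TPM (SD, n = 3). ACLY, which splits citrate into acetyl-CoA, at 279 ± 5.59 TPM and INSIG1 at 272 ± 7.89 TPM (SD, n = 3) were next and did not differ beyond their spread. Of the sterol enzymes MSMO1 was highest at 231 ± 1.82 TPM and HSD17B7 lowest at 8.3 ± 0.172 TPM (SD, n = 3), both enzymes of sterol demethylation. All levels below are normalised counts, which compare a gene between libraries and not one gene with another.

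The branch medians lay furthest apart in double KD cells, where most fatty acid enzymes fell and the sterol median stayed near 0. Against control, 13 of 32 members fell and 4 rose in double KD cells (limma, adjusted p under 0.05, 3 libraries per group). Of all genes tested 17.5% fell and 16.7% rose. The fatty acid branch had 6 of 8 enzymes lower and none higher, with a median log2 fold change of -0.59. The sterol branch had 4 of 18 lower and 2 higher, with a median of 0.04. The 2 of 18 that rose are a smaller share than the 16.7% of all genes, and the 4 that fell are near the 17.5%. No fatty acid enzyme was higher in double KD cells at an unadjusted p under 0.05 either, nor with edgeR or DESeq2. The median over all genes was 0.0057. Without double KD replicate 2, 5 fatty acid enzymes were lower and none higher, 5 sterol enzymes were lower and 4 higher, and the medians were -0.62 and -0.01; 20% of all genes were then lower and 19.1% higher. No test was made of one branch against the other.

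The fatty acid median was below 0 in SIRT1 KD cells, and the sterol median was near 0. In SIRT1 KD cells 7 members rose and 7 fell, beside 12.9% of all genes higher and 15.7% lower. The fatty acid branch had 4 of 8 lower and none higher with a median of -0.21. The sterol branch had 2 of 18 lower and 5 higher with a median of 0.02, and the regulators 1 of 6 lower and 2 higher. The 2 of 18 sterol enzymes that fell are a smaller share than the 15.7% of all genes. The 0 fatty acid enzymes higher in SIRT1 KD cells remained 0 at an unadjusted p under 0.05 and with edgeR and DESeq2. Fewer members moved in IGF2BP2 KD cells, where 4 rose and 3 fell, beside 6.86% of all genes higher and 9.39% lower. There 2 of 18 sterol enzymes were higher and 1 lower, 2 of 8 fatty acid enzymes were higher and 1 lower, and the medians were 0.13 and 0.07. The median over all genes was -0.00182 in SIRT1 KD cells and -0.0037 in IGF2BP2 KD cells. These 3 comparisons share the control libraries. Leaving out double KD replicate 2, which changes the spread that all groups share, gave 8 higher and 11 lower in SIRT1 KD cells and 11 higher and 5 lower in IGF2BP2 KD cells. The shares of all genes were larger in that fit too, at 18.4% higher and 20.4% lower in SIRT1 KD cells and 12.6% higher and 15.2% lower in IGF2BP2 KD cells. By branch, it had 6 of 8 fatty acid enzymes lower and 0 higher in SIRT1 KD cells, and 6 of 18 sterol enzymes higher and 4 lower. For IGF2BP2 KD cells it had 4 of 8 fatty acid enzymes higher and 3 lower, and 7 of 18 sterol enzymes higher and 1 lower. In bulk RNA, fewer cells that express a gene and less RNA per cell cannot be told apart.

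**Figure D1:**
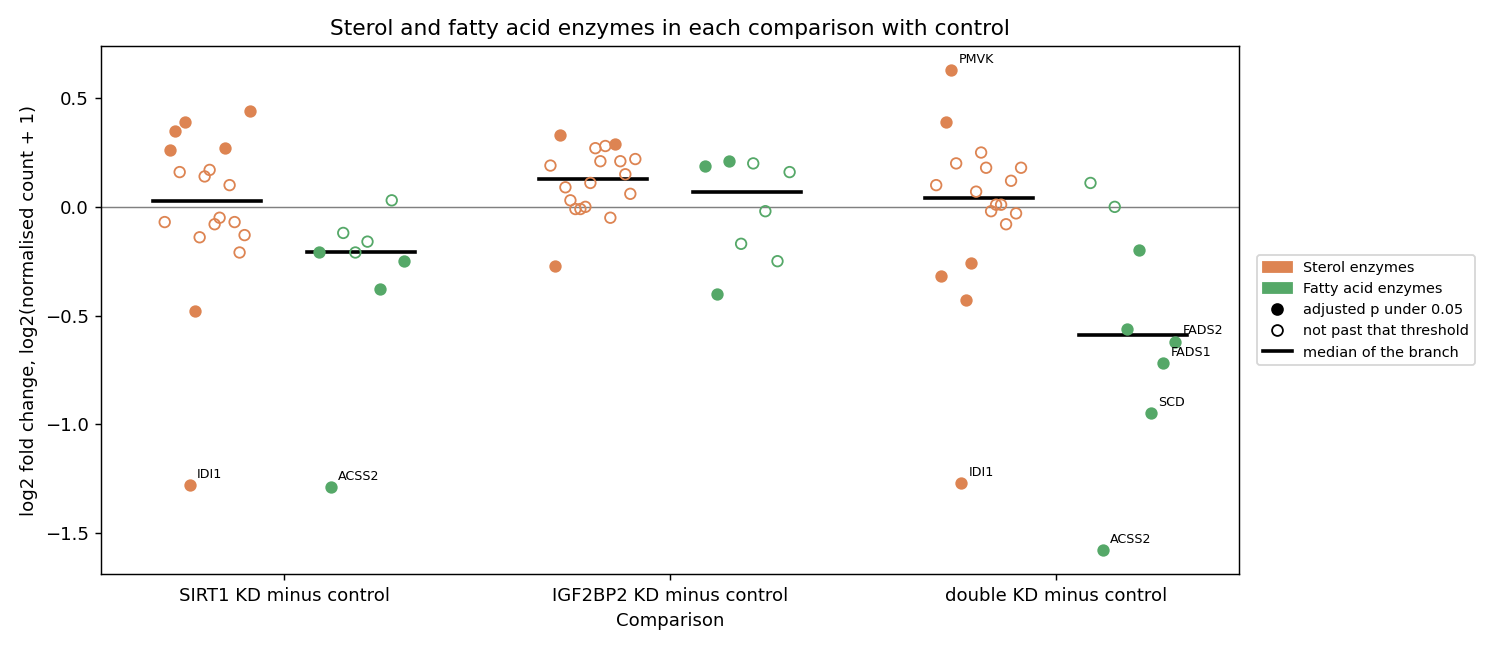
Log2 fold change of each sterol enzyme (orange, 18 genes) and each fatty acid enzyme (green, 8 genes) in SIRT1 KD, IGF2BP2 KD and double KD cells against control. Filled points passed an adjusted p of 0.05 and bars are branch medians. The fatty acid median is at -0.21, 0.07 and -0.59 and the sterol median at 0.02, 0.13 and 0.04. IDI1 is far below the other sterol enzymes in SIRT1 KD and double KD cells.

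Double KD cells differed from SIRT1 KD cells mainly in the fatty acid branch and the regulators. For double KD against SIRT1 KD cells, 1 member rose and 11 fell, beside 11.9% of all genes higher and 10.7% lower. These were 5 of 8 fatty acid enzymes lower and 1 higher, 3 of 18 sterol enzymes lower and 3 of 6 regulators lower. The branch medians were -0.32 for fatty acid and 0.02 for sterol enzymes, and 2 members rose and 13 fell without double KD replicate 2, beside 14.8% of all genes higher and 13.5% lower in that fit. Lower in double KD than in IGF2BP2 KD cells were 7 of 8 fatty acid enzymes and 6 of 18 sterol enzymes. In all, 3 members rose and 15 fell for double KD against IGF2BP2 KD cells, beside 16.4% of all genes higher and 15.2% lower, and 3 rose and 19 fell without replicate 2, beside 18.4% higher and 17.2% lower. The all-gene medians were 0.0161 and 0.00631.

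**Figure D2:**
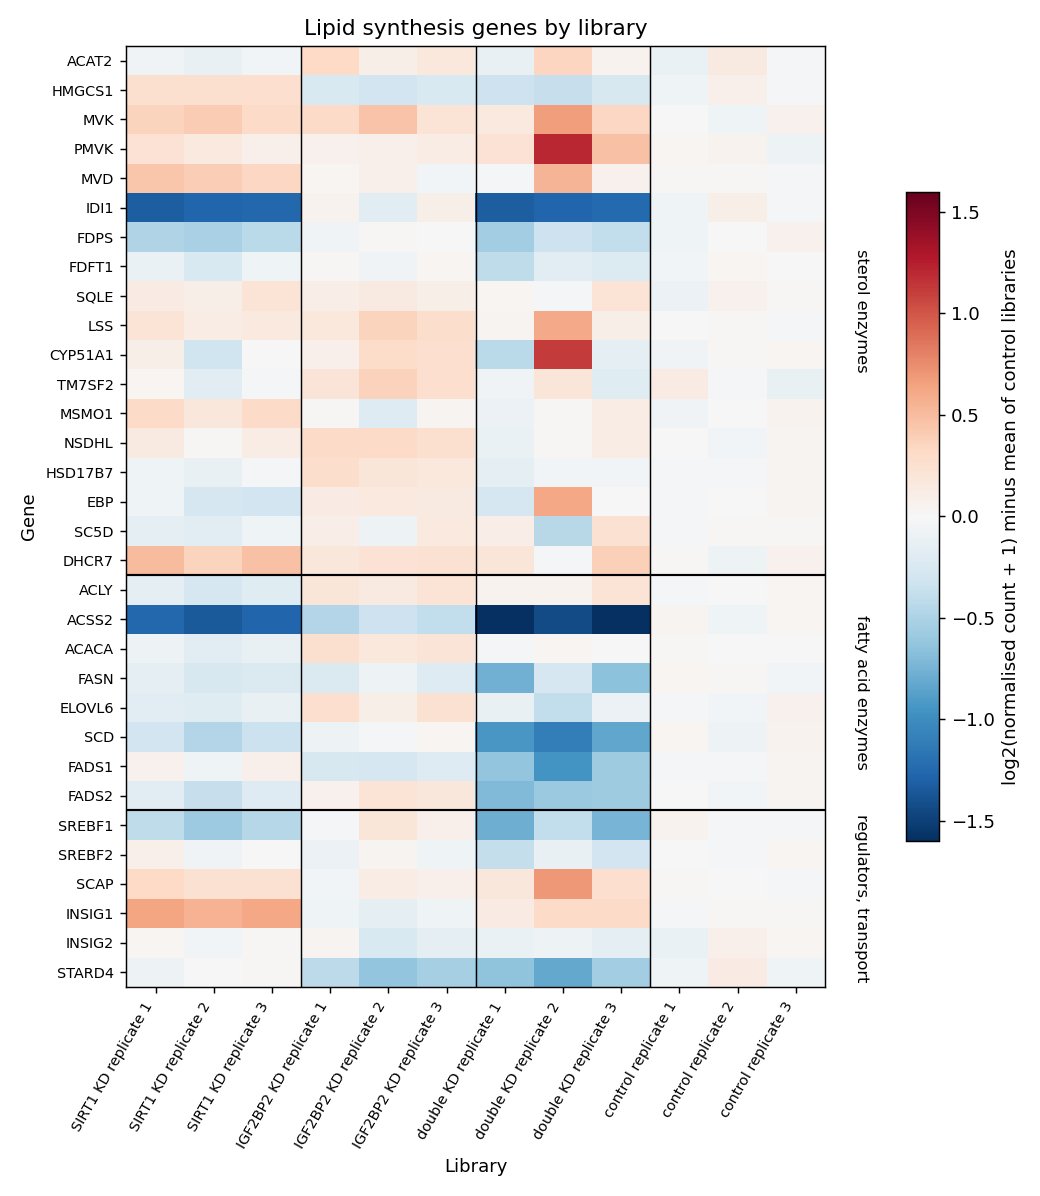
Each of the 32 members (rows, grouped as sterol enzymes, fatty acid enzymes, and regulators and transport) in each of the 12 libraries (columns), as log2(normalised count + 1) minus the mean of the control libraries. IDI1 and ACSS2 are dark blue in all SIRT1 KD and double KD libraries. SCD, FADS1 and FADS2 are bluest in double KD, and double KD replicate 2 is red for CYP51A1 and PMVK.

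Among the regulators, SREBF1 and INSIG1 moved in opposite directions when SIRT1 was knocked down, while SREBF2 did not pass the test in either knockdown alone. SREBF1 (chr17:17810399-17837002, minus strand, GRCh38) encodes the SREBP that favours fatty acid genes. SREBF1 had 5407, 4798 and 5243 normalised counts in SIRT1 KD cells, 7021, 8212 and 7583 in IGF2BP2 KD cells and 4168, 5472 and 4283 in double KD cells, against 7475, 7060 and 6993 in control cells. The SIRT1 KD and double KD libraries all lay below the control libraries, and the IGF2BP2 KD libraries overlapped them. SREBF1 fell by 0.48 ± 0.0896 in SIRT1 KD cells (log2 ± SE, limma adjusted p = 5.1e-04). The fall in double KD cells was 0.64 on the log2 scale (adjusted p = 2.2e-05), with a change of -0.76 without replicate 2. Double KD against SIRT1 KD was -0.16 (95% interval -0.35 to 0.03), which did not pass the test, and -0.28 without replicate 2, which did (adjusted p = 3.9e-04).

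SREBF2 (chr22:41833079-41907308, plus strand) is the SREBP of the sterol genes. SREBF2 had 6990, 6374 and 6611 normalised counts in SIRT1 KD cells, 6193, 6860 and 6328 in IGF2BP2 KD cells and 5108, 6112 and 5369 in double KD cells, against 6613, 6500 and 6791 in control cells. The double KD libraries were all below control, while the other groups overlapped it. The log2 difference was 0.00 in SIRT1 KD cells (95% interval -0.14 to 0.15) and -0.04 in IGF2BP2 KD cells (-0.19 to 0.11). In double KD cells SREBF2 fell by 0.27 (adjusted p = 0.00625; -0.34 without replicate 2).

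INSIG1 (chr7:155297776-155310235, plus strand) had the largest rise of the members in SIRT1 KD cells. INSIG1 had 11458, 10812 and 11285 normalised counts in SIRT1 KD cells, 7056, 6589 and 7056 in IGF2BP2 KD cells and 8098, 9136 and 9153 in double KD cells, against 7227, 7455 and 7440 in control cells. All SIRT1 KD libraries and all double KD libraries lay above control, the double KD ones lower than SIRT1 KD. The log2 change was 0.60 ± 0.0621 in SIRT1 KD cells (adjusted p = 7.9e-07), -0.10 in IGF2BP2 KD cells (adjusted p = 0.333) and 0.25 in cells with both hairpins (adjusted p = 0.00394; 0.22 without replicate 2). Double KD against SIRT1 KD was -0.35 (adjusted p = 4.8e-04; -0.38 without replicate 2). INSIG2, its close relative, ranged from 631 to 790.1 normalised counts over all libraries and passed no test.

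SCAP, the escort of the SREBP precursors, was raised slightly. SCAP had 2966, 2823 and 2824 normalised counts in SIRT1 KD cells, 2306, 2585 and 2520 in IGF2BP2 KD cells and 2694, 3861 and 2867 in double KD cells, against 2404, 2395 and 2332 in control cells. Double KD replicate 2 stood above its mates, and the SIRT1 KD libraries were all above control. SCAP changed by 0.27 in SIRT1 KD cells (adjusted p = 0.0453), a call lost in 10 of 21 alternatives, and by 0.38 in double KD cells (adjusted p = 0.00522; 0.23 without replicate 2).

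STARD4 (chr5:111496033-111512590, minus strand), which carries cholesterol between membranes, was the regulator that passed the test in IGF2BP2 KD cells. STARD4 had 1690, 1795 and 1802 normalised counts in SIRT1 KD cells, 1332, 1156 and 1236 in IGF2BP2 KD cells and 1140, 1009 and 1215 in double KD cells, against 1707, 1958 and 1706 in control cells. All IGF2BP2 KD and double KD libraries were below every control library, and the SIRT1 KD libraries overlapped control. STARD4 fell by 0.53 ± 0.0814 in IGF2BP2 KD cells (adjusted p = 1.8e-04) and by 0.68 in double KD cells (adjusted p = 3.5e-06; -0.60 without replicate 2). In SIRT1 KD cells its log2 difference was -0.02 (95% interval -0.19 to 0.15).

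**Figure D3:**
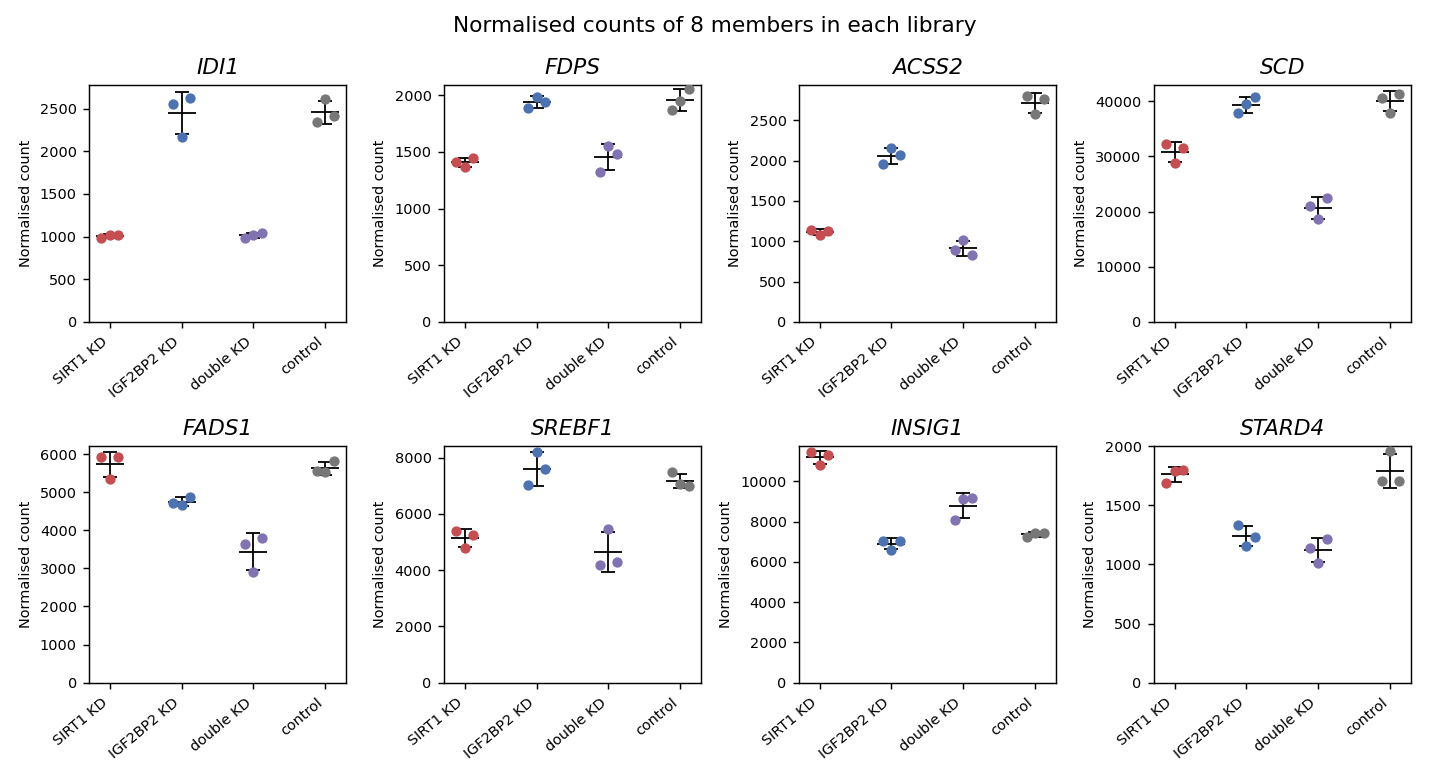
Normalised counts of 8 members in each library (points) with the mean and SD of the 3 libraries of each group (bars), on axes that start at 0. IDI1, FDPS and ACSS2 sit low in SIRT1 KD and double KD, SCD and FADS1 lowest in double KD, INSIG1 highest in SIRT1 KD, and STARD4 low in IGF2BP2 KD and double KD.

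In the sterol branch HMGCS1, MVK, MVD, MSMO1 and DHCR7 rose in SIRT1 KD cells, and IDI1 and FDPS fell. HMGCS1, the synthase at the entry of the pathway, rose with SIRT1 knockdown and fell with IGF2BP2 knockdown. HMGCS1 had 2705, 2711 and 2730 normalised counts in SIRT1 KD cells, 1904, 1825 and 1910 in IGF2BP2 KD cells and 1802, 1749 and 1897 in double KD cells, against 2166, 2392 and 2237 in control cells. No library of any knockdown group overlapped control. The log2 change was 0.26 in SIRT1 KD cells (adjusted p = 0.00326), -0.27 in IGF2BP2 KD cells (adjusted p = 0.0053) and -0.32 in cells with both hairpins (adjusted p = 5.3e-04; -0.29 without replicate 2). Reads over 15% of its exon length could also come from an antisense gene, since the strand setting of the counting is not given.

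The kinases and the decarboxylase that follow were higher or did not pass the test. MVK had 990.0, 1022 and 951 normalised counts in SIRT1 KD cells, 956, 1061 and 896 in IGF2BP2 KD cells and 863, 1230 and 971 in double KD cells, against 773, 737 and 807 in control cells. MVK, the mevalonate kinase, was above control in every knockdown library, with a log2 change of 0.35 in SIRT1 KD cells (adjusted p = 0.0139), 0.33 in IGF2BP2 KD cells (adjusted p = 0.036, lost in 8 of 21 alternatives) and 0.39 in cells with both hairpins (adjusted p = 0.00662; 0.25 without replicate 2). PMVK had 485, 459 and 438 normalised counts in SIRT1 KD cells, 433, 435 and 448 in IGF2BP2 KD cells and 485, 952 and 569 in double KD cells, against 421, 428 and 389.6 in control cells. PMVK, the phosphomevalonate kinase, rose by 0.63 in double KD cells (adjusted p = 0.00868), where replicate 2 was far above the others; the log2 change was 0.35 without it. MVD had 1278, 1238 and 1190 normalised counts in SIRT1 KD cells, 963, 999.6 and 917 in IGF2BP2 KD cells and 927, 1378 and 992 in double KD cells, against 952, 952 and 924 in control cells. MVD, the mevalonate diphosphate decarboxylase, rose by 0.39 in SIRT1 KD cells (adjusted p = 0.00971) and was at 0.20 in double KD cells, which did not pass (adjusted p = 0.164; 0.03 without replicate 2).

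IDI1 (chr10:1039152-1049170, minus strand), the isomerase that makes the allylic building block of isoprenoids, had by far the largest change of the branch. IDI1 had 985, 1018 and 1022 normalised counts in SIRT1 KD cells, 2557, 2172 and 2620 in IGF2BP2 KD cells and 984, 1020 and 1037 in double KD cells, against 2344, 2607 and 2414 in control cells. The SIRT1 KD and double KD libraries lay close together and far below the lowest control library, and the IGF2BP2 KD libraries overlapped control. IDI1 was at 41.1% of control in SIRT1 KD cells, 99.8% in IGF2BP2 KD cells and 41.3% in double KD cells. Its double KD level differed from SIRT1 KD by 0.01 on the log2 scale (95% interval -0.15 to 0.16; 0.00 without replicate 2). Its change in double KD cells was -1.27 ± 0.074 (adjusted p = 4.1e-10; -1.28 without replicate 2). An antisense gene, IDI2-AS1, overlaps 14.8% of its exon length.

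FDPS, the synthase of the next step, which makes farnesyl diphosphate, showed the same order of groups with a smaller change. FDPS had 1407, 1369 and 1445 normalised counts in SIRT1 KD cells, 1886, 1989 and 1940 in IGF2BP2 KD cells and 1326, 1552 and 1484 in double KD cells, against 1869, 1950 and 2055 in control cells. The SIRT1 KD and double KD libraries were below every control library. FDPS fell by 0.48 ± 0.069 in SIRT1 KD cells (adjusted p = 4.0e-05) and by 0.43 in double KD cells (adjusted p = 8.5e-05; -0.48 without replicate 2). An antisense gene overlaps 18.6% of its exon length, and the 8 listed FDPS pseudogenes held at most 0.197% of its level each.

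Squalene opens the part of the branch that makes only sterols. SQLE, the squalene epoxidase, carries out a rate-limiting step. SQLE had 909.6, 888 and 966 normalised counts in SIRT1 KD cells, 896, 919 and 889.6 in IGF2BP2 KD cells and 851, 821 and 969 in double KD cells, against 783, 875 and 845 in control cells. The SIRT1 KD and IGF2BP2 KD libraries lay just above control and the double KD libraries overlapped it. None of the 3 log2 differences from control passed the test: 0.14 in SIRT1 KD cells (95% interval -0.02 to 0.30), 0.11 in IGF2BP2 KD cells (-0.05 to 0.27) and 0.07 in double KD cells (-0.09 to 0.23; a value of 0.12 without replicate 2). FDFT1, the squalene synthase, fell by 0.26 in double KD cells (adjusted p = 0.00672; -0.31 without replicate 2). LSS, the lanosterol synthase, changed by 0.25 in double KD cells (adjusted p = 0.0852) and by 0.07 without replicate 2. In the latter fit LSS was higher in SIRT1 KD cells (0.17, limma adjusted p = 0.0101) and in IGF2BP2 KD cells (0.27, adjusted p = 9.6e-05).

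DHCR7, the reductase that makes cholesterol from its immediate precursor, was the late enzyme that rose most. DHCR7 had 6615, 5933 and 6399 normalised counts in SIRT1 KD cells, 5257, 5426 and 5505 in IGF2BP2 KD cells and 5290, 4563 and 6068 in double KD cells, against 4681, 4369 and 4884 in control cells. All SIRT1 KD and all IGF2BP2 KD libraries lay above control, and double KD replicate 2 was within the control range. DHCR7 rose by 0.44 ± 0.0835 in SIRT1 KD cells (adjusted p = 5.3e-04), and its log2 change was 0.22 in IGF2BP2 KD cells (adjusted p = 0.0866) and 0.18 in cells with both hairpins (adjusted p = 0.1). Without replicate 2 the double KD change was 0.29 and passed (adjusted p = 2.0e-04). The IGF2BP2 KD change of 0.22 passed too in that fit (limma adjusted p = 0.00241).

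Among the remaining sterol enzymes, MSMO1 rose by 0.27 in SIRT1 KD cells (adjusted p = 0.0123) and NSDHL, its partner in demethylation, by 0.29 in IGF2BP2 KD cells (adjusted p = 0.0168). Others were ACAT2, a thiolase that joins acetyl-CoA units, TM7SF2, a sterol reductase, HSD17B7, EBP, a sterol isomerase, and SC5D, a sterol desaturase. With all libraries these passed no test against control. Without double KD replicate 2, ACAT2 (limma adjusted p = 0.0281), TM7SF2 (0.00436) and HSD17B7 (0.0465) were higher in IGF2BP2 KD cells. EBP (0.0153) was lower in SIRT1 KD cells in that fit. On the opposite strand, SOD2 overlaps 26.5% and SOD2-OT1 33.9% of the ACAT2 exon length. For double KD against IGF2BP2 KD cells, TM7SF2 fell by 0.30 (adjusted p = 0.0303; -0.41 without replicate 2) and HSD17B7 by 0.29 (adjusted p = 0.0125; -0.31 without replicate 2). CYP51A1, the lanosterol demethylase, had 399, 1168 and 485 normalised counts in double KD cells, against 519, 544 and 551 in control cells. Replicate 2 was above and its mates below every control library. The log2 difference was 0.18 with all libraries (adjusted p = 0.733) and -0.29 without replicate 2 (adjusted p = 0.0153). SC5D turned the other way, at -0.03 with all libraries and 0.17 without replicate 2 (adjusted p = 0.0338). A readthrough gene on the same strand covers 79.4% of the CYP51A1 exon length, so its reads may be split, and HSD17B7P2, a near copy of HSD17B7, stood at 8.65% of the HSD17B7 level.

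The fatty acid branch opens with the enzymes that supply acetyl-CoA, and these differed sharply. ACSS2 (chr20:34872146-34927962, plus strand), which makes acetyl-CoA from acetate and whose protein is a known substrate of SIRT1, had the largest fall of all members. ACSS2 had 1137, 1072 and 1130 normalised counts in SIRT1 KD cells, 1956, 2150 and 2071 in IGF2BP2 KD cells and 891, 1009 and 831 in double KD cells, against 2806, 2576 and 2761 in control cells. The groups did not overlap, with control highest, then IGF2BP2 KD, then SIRT1 KD, then double KD. ACSS2 was at 41% of control in SIRT1 KD cells, 75.9% in IGF2BP2 KD cells and 33.5% in double KD cells. The log2 changes were -1.29 ± 0.0746 (adjusted p = 9.1e-10), -0.40 (adjusted p = 0.00104) and -1.58 (adjusted p = 3.4e-11; -1.66 without replicate 2). ACLY, which makes the same acetyl-CoA from citrate, fell by 0.21 in SIRT1 KD cells (adjusted p = 0.0165) and rose by 0.19 in IGF2BP2 KD cells (adjusted p = 0.0465, lost in 10 of 21 alternatives). Its difference in double KD cells was 0.11 (adjusted p = 0.199; 0.13 without replicate 2).

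Of the enzymes that build the chain, FASN fell in double KD cells. ACACA, the acetyl-CoA carboxylase, rose by 0.21 in IGF2BP2 KD cells (adjusted p = 0.0135) and passed no other test against control. FASN had 34973, 32454 and 33262 normalised counts in SIRT1 KD cells, 33264, 36929 and 33771 in IGF2BP2 KD cells and 22936, 32180 and 24729 in double KD cells, against 39630, 39410 and 37735 in control cells. FASN was below control in every knockdown library, with double KD replicate 2 above its mates. It fell by 0.56 ± 0.0916 in double KD cells (adjusted p = 1.1e-04, and -0.71 without replicate 2). With all libraries, -0.21 in SIRT1 KD cells (adjusted p = 0.0925) and -0.17 in IGF2BP2 KD cells (adjusted p = 0.241) did not pass. Both passed in the fit without double KD replicate 2 (limma adjusted p = 9.4e-04 and 0.013). ELOVL6, an elongase, changed by -0.20 in double KD cells (adjusted p = 0.0499), a call lost in 15 of 21 alternatives, among them the fit without replicate 2 (-0.11).

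SCD (chr10:100347124-100364834, plus strand) was lower in SIRT1 KD cells than in control cells and much lower still in double KD cells. SCD had 32228, 28775 and 31446 normalised counts in SIRT1 KD cells, 37794, 39529 and 40677 in IGF2BP2 KD cells and 21026, 18575 and 22417 in double KD cells, against 40647, 37894 and 41351 in control cells. The double KD libraries were lowest, the SIRT1 KD libraries lay between, and the IGF2BP2 KD libraries overlapped control. SCD was at 77.1% of control in SIRT1 KD cells (log2 -0.38 ± 0.071, adjusted p = 5.4e-04), 98.4% in IGF2BP2 KD cells and 51.7% in double KD cells (log2 -0.95, adjusted p = 9.2e-09; -0.88 without replicate 2).

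FADS1 and FADS2, neighbouring genes for the desaturases that make polyunsaturated fatty acids, both fell in double KD cells. FADS1 had 5916, 5351 and 5928 normalised counts in SIRT1 KD cells, 4706, 4655 and 4880 in IGF2BP2 KD cells and 3629, 2892 and 3791 in double KD cells, against 5545, 5519 and 5819 in control cells. FADS2 had 5877, 5184 and 5784 normalised counts in SIRT1 KD cells, 7021, 7725 and 7576 in IGF2BP2 KD cells and 4095, 4401 and 4485 in double KD cells, against 6653, 6478 and 6876 in control cells. For both genes every double KD library was below every library of the other groups. FADS1 fell by 0.72 ± 0.0826 in double KD cells (adjusted p = 1.9e-06; -0.60 without replicate 2), with 0.03 in SIRT1 KD cells (adjusted p = 0.858) and -0.25 in IGF2BP2 KD cells (adjusted p = 0.0508). FADS2 fell by 0.25 in SIRT1 KD cells (adjusted p = 0.00768) and by 0.62 in double KD cells (adjusted p = 7.4e-07; -0.64 without replicate 2), and was at 0.16 in IGF2BP2 KD cells (adjusted p = 0.119). In the fit without double KD replicate 2, FADS1 was lower (limma adjusted p = 2.9e-04) and FADS2 higher (0.0282) in IGF2BP2 KD cells. Their exons overlap on opposite strands, over 4.79% of the FADS1 and 4.44% of the FADS2 exon length.

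The interaction asked whether double KD differed from the sum of the single knockdowns on the log2 scale. No member was higher than the sum and 4 were lower (1.7% and 1.16% of all genes), 3 of them fatty acid desaturases. The count above the sum was 0 at an unadjusted p under 0.05 too, and 0 with edgeR and with DESeq2. The interaction was -0.56 ± 0.1 for SCD (adjusted p = 0.0074), -0.53 ± 0.0932 for FADS2 (adjusted p = 0.00697), -0.50 ± 0.117 for FADS1 (adjusted p = 0.0275) and -0.48 ± 0.118 for DHCR7 (adjusted p = 0.0378). FADS1 summed to -0.22 over the single changes and stood at -0.72 in double KD cells, and SCD summed to -0.40 and stood at -0.95. For DHCR7 the single changes summed to 0.66 and the double KD change was 0.18. IDI1 (0.01, 95% interval -0.21 to 0.23) and ACSS2 (0.10, 95% interval -0.12 to 0.33) did not depart from the sum by an amount that passed the test. The median over the members was -0.18, and over all genes 0.0182.

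The FADS2 call held in all 20 alternatives for the interaction, SCD was lost in 1, FADS1 in 9 and DHCR7 in 10. Without double KD replicate 2, 15 members were lower than the sum and none higher: 8 of 18 sterol enzymes, 4 of 8 fatty acid enzymes and 3 of 6 regulators, the last being SREBF1 (-0.36), SREBF2 (-0.31) and INSIG1 (-0.28). In the same fit 3.88% of all genes were lower than the sum and 5.86% higher. SCD was then at -0.48, FADS2 at -0.54, FADS1 at -0.38 and DHCR7 at -0.37.

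**Figure D4:**
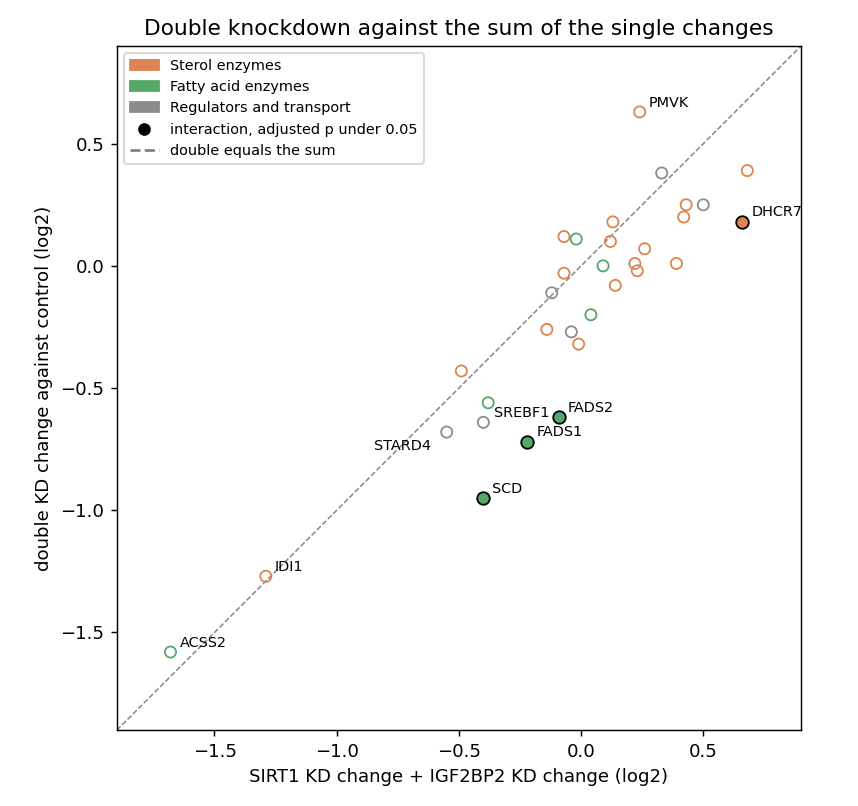
Log2 change of each member in double KD cells (vertical) against the sum of its changes in SIRT1 KD and IGF2BP2 KD cells (horizontal), all against the same control libraries. The dashed line marks equality. IDI1 and ACSS2 lie near the line, and SCD, FADS1, FADS2 and DHCR7 (filled, interaction adjusted p under 0.05) lie below it.

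Genes that work beside the members were taken from lists chosen by function. Of 23 genes of sterol handling and SREBP processing, 3 rose and 5 fell in SIRT1 KD cells, 4 fell in IGF2BP2 KD cells, and 3 rose and 11 fell in double KD cells (5 and 9 without replicate 2). The shares of all genes higher and lower were 12.9% and 15.7% in SIRT1 KD cells, 6.86% and 9.39% in IGF2BP2 KD cells, and 16.7% and 17.5% in double KD cells (19.1% and 20% without replicate 2). The 3 of 23 that rose in SIRT1 KD cells are near the 12.9% of all genes, and none of the 23 rose in IGF2BP2 KD cells. ABCG1, a transporter that exports sterols, had 62.6, 54.8 and 48.4 normalised counts in SIRT1 KD cells, 97.2, 104 and 82.4 in IGF2BP2 KD cells and 36.5, 38.4 and 40.2 in double KD cells, against 137, 105 and 160.1 in control cells. It fell by 1.25 in SIRT1 KD cells (adjusted p = 1.6e-05) and by 1.76 in double KD cells (adjusted p = 2.0e-07; -1.76 without replicate 2), every knockdown library lying below control. ABCA1, the other main sterol exporter, fell by 0.59 in double KD cells (adjusted p = 4.0e-07; -0.58 without replicate 2), with -0.14 in SIRT1 KD cells and 0.06 in IGF2BP2 KD cells, which did not pass. SEC23A, part of the vesicle coat that takes SCAP and SREBP to the Golgi, fell by 0.52 in SIRT1 KD cells (adjusted p = 4.9e-04), by 0.63 in IGF2BP2 KD cells (adjusted p = 1.7e-04) and by 1.02 in double KD cells (adjusted p = 2.1e-07; -0.89 without replicate 2).

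Of 30 measured genes among 33 listed around fatty acid synthesis, 5 rose and 7 fell in SIRT1 KD cells, 4 and 4 in IGF2BP2 KD cells, and 5 and 9 in double KD cells (5 and 10 without replicate 2), beside the same shares of all genes. The 5 of 30 that rose in double KD cells are no larger a share than the 16.7% of all genes. MID1IP1, which promotes the active polymer of acetyl-CoA carboxylase, had 2121, 1993 and 2088 normalised counts in SIRT1 KD cells, 1380, 1506 and 1425 in IGF2BP2 KD cells and 1128, 1352 and 1215 in double KD cells, against 2905, 2781 and 2877 in control cells. No groups overlapped. It fell by 0.47 in SIRT1 KD cells (adjusted p = 6.2e-05), by 0.99 in IGF2BP2 KD cells (adjusted p = 3.9e-08) and by 1.22 in double KD cells (adjusted p = 4.0e-10; -1.28 without replicate 2). ACSL3 and ACSL4, which activate long fatty acids with coenzyme A, fell by 0.85 (adjusted p = 2.7e-08) and 0.79 (adjusted p = 5.8e-07) in SIRT1 KD cells, with 0.10 and 0.01 in IGF2BP2 KD cells, which did not pass. In the cells with both hairpins their log2 changes were -0.73 (adjusted p = 1.1e-07; -0.73 without replicate 2) and -0.68 (adjusted p = 2.5e-06; -0.60 without replicate 2).

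The 3′ UTRs of the members were searched for CTCAGAT and TCAGATA, sequences that an earlier search of these data picked from the SIRT1 KD comparison itself, so what follows supports nothing about them. In the principal GENCODE 29 transcripts, 4 of 32 members (12.5%) hold CTCAGAT, as do 1554 of 13108 tested genes. No member holds TCAGATA, and 18% of the tested genes hold either. The holders include the pair of members with the largest falls, IDI1 and ACSS2, with SCD and LSS. Each of these sites is shown with its flanks in 30 bases of GRCh38, in capitals. SIRT1 has the joined form CTCAGATA in its coding sequence, in exon 8 of 9, which is shown too, and TCAGATA in exon 5.
IDI1 (chr10:1040094-1040123, minus strand, exon 5 of 5): gccatagatatCTCAGATttgaaacctcaa
ACSS2 (chr20:34927873-34927902, plus strand, exon 18 of 18): taagagacattCTCAGATgaaactctgttt
SCD (chr10:100363785-100363814, plus strand, exon 6 of 6): ttaatgataaaCTCAGATctgatcaagagt
LSS (chr21:46189638-46189667, minus strand, exon 22 of 22): gtctggacaccCTCAGATcctgtcattgcc
SIRT1 (chr10:67912484-67912513, plus strand, coding sequence): ccatgaagtgcCTCAGATAttaattaatag

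The 4 members with the site had a median log2 fold change of -0.83 in SIRT1 KD cells, against -0.04 for the other 28. It was -0.01 against 0.08 in IGF2BP2 KD cells and -1.11 against -0.01 in double KD cells. IDI1, ACSS2 and SCD fell in SIRT1 KD cells, while LSS, with the same site, was at 0.17 (adjusted p = 0.277). That LSS value passed as a rise in the fit without double KD replicate 2 (limma adjusted p = 0.0101). FDPS, SREBF1, ACLY and FADS2 fell in SIRT1 KD cells without a site in these transcripts. What the site has to do with any of these changes was not tested.

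Promoters were read from 250 bases before to 50 after each RefSeq gene start (GRCh38.p14), in which 28 of 32 members were found (ACAT2, FDFT1, SQLE and FASN were not). On either strand, the NF-Y box CCAAT lay in 75% of these members (13 of 15 sterol and 5 of 7 fatty acid enzymes) and in 42.3% of 11734 tested genes. The Sp1 box GGGCGG lay in 96.4%, against 74.7%, the half-element CCCCAC in 57.1%, against 43.8%, and the E-box CACGTG in 14.3%, against 12.1%. NF-Y and Sp1 are known to act with SREBPs at sterol-regulated promoters. The sterol response element TCACNCCAC lay in SREBF2 alone, 133 bases before the gene start, and in 1.46% of tested genes; where its N is C it contains CCCCAC. The promoters of the regulator with that element, of the member that rose most in SIRT1 KD cells and of the member with the largest interaction among those that passed the test are shown, with the sterol element and the NF-Y box (CCAAT, or ATTGG on the other strand) in capitals. A match in these windows is a description of the letters and not of binding.
SREBF2 (chr22:41832855-41833154, plus strand): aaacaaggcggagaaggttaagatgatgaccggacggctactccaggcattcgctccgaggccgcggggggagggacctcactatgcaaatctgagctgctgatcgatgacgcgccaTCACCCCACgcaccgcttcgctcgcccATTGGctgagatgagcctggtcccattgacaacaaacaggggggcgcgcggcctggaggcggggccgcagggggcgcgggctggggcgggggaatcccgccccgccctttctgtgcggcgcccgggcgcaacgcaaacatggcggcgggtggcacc
INSIG1 (chr7:155297628-155297927, plus strand): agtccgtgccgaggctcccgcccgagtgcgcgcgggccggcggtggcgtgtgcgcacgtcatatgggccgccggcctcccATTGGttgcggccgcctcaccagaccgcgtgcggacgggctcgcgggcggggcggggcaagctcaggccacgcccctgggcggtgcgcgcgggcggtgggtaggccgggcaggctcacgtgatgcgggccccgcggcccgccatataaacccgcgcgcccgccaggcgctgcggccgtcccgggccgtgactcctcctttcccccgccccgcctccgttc
SCD (chr10:100346983-100347282, plus strand): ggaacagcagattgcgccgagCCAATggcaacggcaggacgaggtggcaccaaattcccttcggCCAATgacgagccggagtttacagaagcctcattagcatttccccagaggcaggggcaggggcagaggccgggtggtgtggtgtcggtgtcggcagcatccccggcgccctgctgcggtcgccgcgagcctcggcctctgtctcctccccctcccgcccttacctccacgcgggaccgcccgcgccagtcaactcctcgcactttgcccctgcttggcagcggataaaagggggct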

How the data were processed

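The deposited table used holds the authors' gene counts after division by 1 size factor for each library, a normalised signal. Dividing back by that step gave whole reads for 100% of values in each of the 12 columns (tolerance 0.001 reads). Per the submitters' processing notes, CASAVA, STAR and DESeq2 were used on build GRCh38.p13; no tool version is stated there, nor which annotation was counted or whether reads were counted by strand. The column codes were read from the deposited headers, and the SIRT1 KD code was matched by elimination. A table of log2 ratios, which the authors deposited with full names, was set beside it over 11503 genes and differed by an SD of at most 0.004 for the same library and at least 0.132 for any other. The 12 columns of a table of counts that the authors deposited without sample names were not used. 60463 gene IDs were given a symbol and 58337 were found in GENCODE 29.

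Genes were kept by edgeR's filterByExpr with a minimum count of 10 on the recovered reads. Log2(normalised count + 1) was tested with limma 3.58.1 (R 4.3.3, trend and robust settings) over all 12 libraries with 4 group means, and p-values were adjusted by Benjamini-Hochberg over all 17576 genes; a call is an adjusted p under 0.05. Fold changes on this scale understate those of low genes. TPM used merged exon lengths of GENCODE 29. The test was checked on simulated counts with changes placed in the SIRT1 KD group alone and no library that stood apart. That check does not cover the double KD calls or the interaction. Alternatives were TMM scaling, edgeR 4.0.16 and DESeq2 1.42.0 on whole reads, pseudocounts of 0.5 and 5, no filter, only the groups compared, no trend or robust settings, a replicate block and leaving out each library. Members, branches, partner lists and tests were chosen with earlier results of these data known. All 32 members are named; every library is given for the 16 with the largest called change and for SREBF1, SREBF2, INSIG1, SQLE, FASN and SCD, and 6 partners were taken by adjusted p.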

Additional observations from a re-analysis of the deposited data

Results flagged for a closer look

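The effect of IGF2BP2 knockdown differed between cells with and without SIRT1 knockdown for 4 members, by the interaction term of the limma fit (3 libraries per group). Its log2 value was -0.56 for SCD (adjusted p = 0.0074), -0.53 for FADS2 (adjusted p = 0.00697), -0.50 for FADS1 (adjusted p = 0.0275) and -0.48 for DHCR7 (adjusted p = 0.0378). SCD fell by 0.58 where IGF2BP2 knockdown was added to SIRT1 knockdown, against a difference of -0.02 where it was added to control cells. For FADS1 these values were -0.75 and -0.25, for FADS2 -0.37 and 0.16, and for DHCR7 -0.26 and 0.22. Every such value rests on the double KD group, in which replicate 2 stood apart, and all 4 interactions also passed without it. Over 20 alternatives, the call was lost in 10 for DHCR7, in 9 for FADS1, in 1 for SCD and in none for FADS2. SIRT1 transcript was also lower in double KD cells (48.4% of control) than in SIRT1 KD cells (63.2%), and what that contributes was not tested.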

How the results depend on the processing

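Of 4000 gene values under the alternatives, 3788 stayed on their side of the threshold. Of the others, 83 came to pass it, 126 no longer did and 3 reversed. The 3788 include 103 changes of sign among values that never passed. The 3 reversals came without double KD replicate 2: CYP51A1 in double KD against control (-0.29; -0.29 to 0.48 over all libraries left out) and in the interaction (-0.42; range -0.42 to 0.35), and SC5D in double KD against control (0.17; range -0.17 to 0.17). With only the groups compared in the fit, 22 members were called in SIRT1 KD (14 otherwise), 17 in IGF2BP2 KD (7), 7 for double KD against SIRT1 KD (12) and 10 for double KD against IGF2BP2 KD (18). The interaction had 7 members with DESeq2 and 1 with no trend or robust settings (4 otherwise). With a wider branch membership the sterol median in IGF2BP2 KD cells was 0.06 (0.13 otherwise).

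Leaving out each library in turn gave 10 to 19 members called in SIRT1 KD, 3 to 16 in IGF2BP2 KD, 16 to 19 in double KD, 9 to 15 for double KD against SIRT1 KD, 15 to 22 for double KD against IGF2BP2 KD, and 2 to 15 for the interaction. The highest came without double KD replicate 2 in every comparison. For double KD against control, the same 19 was also reached without double KD replicate 1. Sterol medians ranged over 0.00 to 0.09, 0.12 to 0.14, -0.01 to 0.08, -0.08 to 0.03, -0.21 to -0.03 and -0.22 to -0.09 in the same order, and fatty acid medians over -0.24 to -0.18, 0.04 to 0.09, -0.62 to -0.52, -0.38 to -0.27, -0.50 to -0.43 and -0.24 to -0.18.

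Over all genes, the interaction called 503 genes, 135 with no trend or robust settings, 926 with DESeq2 and 116 to 1765 with a library left out. With only the groups compared, SIRT1 KD called 7784 genes (5030 otherwise), IGF2BP2 KD 5122 (2857), double KD against SIRT1 KD 2251 (3980) and double KD against IGF2BP2 KD 3640 (5550). IGF2BP2 KD called 1860 to 5028 with a library left out. On whole reads edgeR called 5290, 3142, 6091, 4024, 5628 and 583 genes in the order above. Same-numbered libraries of different groups did not deviate together (correlations -0.193 to 0.0996 over 18 pairs; 5 of 12 libraries correlated best with their own number), so the numbers were not taken as pairs; a replicate block gave 5098 calls in SIRT1 KD and 457 in the interaction. What causes these differences was not tested. Depth is not short for any member, since the lowest, HSD17B7, had at least 267 normalised counts in each library.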
